A study of Mus musculus with 39 samples.

Results

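The 44 DNA replication genes described here form a list of mouse gene symbols chosen with earlier results of these data known. Shares of members set against all genes are therefore descriptive. The symbols were matched to the rows of a gene count table. All 44 were found among its 43430 gene rows, and they were followed through 39 RNA-seq libraries in 8 groups of C57BL/6J mice. In 4 groups, lung monocytes had been sorted from naive mice. In the other 4, Siglec F-low alveolar macrophages had been taken from the lungs of animals exposed to bleomycin, which causes lung injury followed by fibrosis. Each cell type came from young and from old mice, treated with saline or with ISRIB, a small molecule that acts on the initiation factor eIF2B and counters the integrated stress response. Each group had 5 libraries, except the young ISRIB macrophages, which had 4. For the bleomycin mice, the series text puts the start of daily ISRIB or vehicle at day 7 and the collection at day 21. The ages differ between the labels (8 to 12 weeks and over 18 months) and the series text (3 to 5 and 18 to 24 months). The labels name no mice, so it is not known whether libraries of 1 group came from separate animals, and p-values measure the spread between these libraries. No monocyte library came from a bleomycin mouse and no macrophage library from a naive mouse, so cell type and injury cannot be told apart.

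Replication is prepared in G1, when the origin recognition complex, CDC6 and CDT1 load the MCM2-7 helicase on DNA, a step called licensing. In S phase CDC45 and the GINS complex activate the helicase, polymerase alpha-primase starts each strand, and polymerases delta and epsilon extend it on the PCNA clamp, which RFC complexes load. RPA covers single-stranded DNA, FEN1 and LIG1 mature and join Okazaki fragments, and ribonucleotide reductase and thymidylate synthase supply deoxynucleotides. Many of these genes are transcribed around the G1/S transition under E2F factors, and their messenger RNA is widely used as a mark of cycling cells. Alveolar macrophages can divide in the lung, whereas circulating monocytes mostly do not.

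Promoter sequence is shown for 5 members that recur in the comparisons and differ in the motifs they carry. Each is 160 bases upstream of the RefSeq transcription start (GRCm38.p6), 5′ to 3′ on the strand of the gene, and capitals mark E2F words and CCAAT boxes on either strand.
Mcm5 promoter (chr8:75109349-75109508, plus strand): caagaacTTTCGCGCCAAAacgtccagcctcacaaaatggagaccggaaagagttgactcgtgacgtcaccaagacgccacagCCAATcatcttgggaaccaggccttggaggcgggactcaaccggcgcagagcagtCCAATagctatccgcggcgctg
Mcm6 promoter (chr1:128359706-128359865, minus strand): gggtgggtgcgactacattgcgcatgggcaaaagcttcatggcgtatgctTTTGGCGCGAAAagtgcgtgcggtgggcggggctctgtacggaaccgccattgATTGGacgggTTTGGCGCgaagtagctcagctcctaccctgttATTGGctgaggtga
Rfc3 promoter (chr5:151651209-151651368, minus strand): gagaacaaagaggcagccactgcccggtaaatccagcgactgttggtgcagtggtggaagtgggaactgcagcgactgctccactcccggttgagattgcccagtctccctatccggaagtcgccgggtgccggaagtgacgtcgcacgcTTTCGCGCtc
Cdc6 promoter (chr11:98907991-98908150, plus strand): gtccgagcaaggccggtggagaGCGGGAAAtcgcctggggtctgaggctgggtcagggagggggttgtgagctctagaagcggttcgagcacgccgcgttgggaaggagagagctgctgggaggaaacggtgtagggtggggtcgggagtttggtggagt
Chtf18 promoter (chr17:25727416-25727575, minus strand): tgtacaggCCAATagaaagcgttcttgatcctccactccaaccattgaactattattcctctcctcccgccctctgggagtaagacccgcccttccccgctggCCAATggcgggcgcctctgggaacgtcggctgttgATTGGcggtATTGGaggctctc
The Mcm5 stretch held 2 overlapping E2F words, starting at -153 and -149 from the start site, and CCAAT boxes at -77 and -22. The Mcm6 stretch held 3 E2F words, of which those at -110 and -106 overlapped, and 2 CCAAT boxes. The E2F word of Rfc3 stood at -10, next to the start site, and that of Cdc6 at -138. These positions hold for the RefSeq start sites. The other gene models used here start Cdc6 at 98907801 and Rfc3 at 151651242, so both words lie inside those models. Chtf18 held 4 CCAAT boxes and no E2F word. The words searched on both strands of the 250 upstream bases were TTTCCCGC, TTTCGCGC, TTTGCCGC and TTTGGCGC for E2F, CCAAT, and TTTGAA for the cell cycle homology region of late cell cycle genes. An E2F word was present in 9 of the 36 members with a RefSeq promoter entry (25%), against 2.72% of 17491 protein-coding genes. CCAAT was present in 24 of those 36 members (66.7%), against 39.5% of protein-coding genes, and TTTGAA in 5 (13.9%), against 16.9%. Such matches describe letters and do not show binding. Mcm4, Gins1, Gins2, Gins4, Prim2, Pole, Rfc2 and Ccne2 had no entry.

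Between 4595331 and 16056708 reads were counted per library (median 8628240), over 12324 to 17313 genes with a count. Levels are in CPM, the counts of a gene per 1000000 counts in its library. The labelled cell types were checked against defining markers: Mertk, a macrophage receptor, was at 325.9 to 600.0 CPM in the macrophages and 0.485 to 7.47 CPM in the monocytes. Ly6c2, a marker of classical monocytes, was at 0.193 to 7.01 CPM in the macrophages and 277.9 to 697.7 CPM in the monocytes. As sums, 11 macrophage identity genes were at 12809 to 22218 CPM in macrophages and 1634 to 3739 CPM in monocytes. For 12 mature alveolar macrophage genes the sums were 5725 to 15731 and 620 to 2162 CPM. The sums of 13 monocyte genes overlapped, at 5541 to 13297 CPM in macrophages and 10837 to 16326 CPM in monocytes. That list shares Chil3 with the mature alveolar list, which in turn shares Siglecf with the macrophage identity list. Several libraries stood apart. Young ISRIB macrophage replicate 3 was the highest of the 19 macrophage libraries for 17 members and the highest of its group for 36. Old saline macrophage replicate 2 was the highest of the 19 for 11 members and the highest of its group for 35. At the other end, young ISRIB macrophage replicate 2 was the lowest of the 19 for 13 members, replicate 4 for 7 and replicate 1 for 5. Young saline monocyte replicate 4 was the shallowest library, at 4595331 counts, and only 33 members had a count in it. It was the lowest of the 20 monocyte libraries for 17 members and the highest for 6. Pold1 was at 1.09 CPM there, against 8.83 to 14.7 CPM in the rest of its group. Prim2 was at 0, against 3.24 to 7.24 CPM. The cause was not tested, and this library enters every comparison with young saline monocytes. The comparisons among macrophages are given with and without the 2 high libraries, and the effect of leaving out single other libraries is given for many calls and counts, not for all. Depth limits the lowest members in monocytes, where Chtf18 had no count in 7 of the 20 libraries and Uhrf1 and Pole had none in 3 each.

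**Figure D1:**
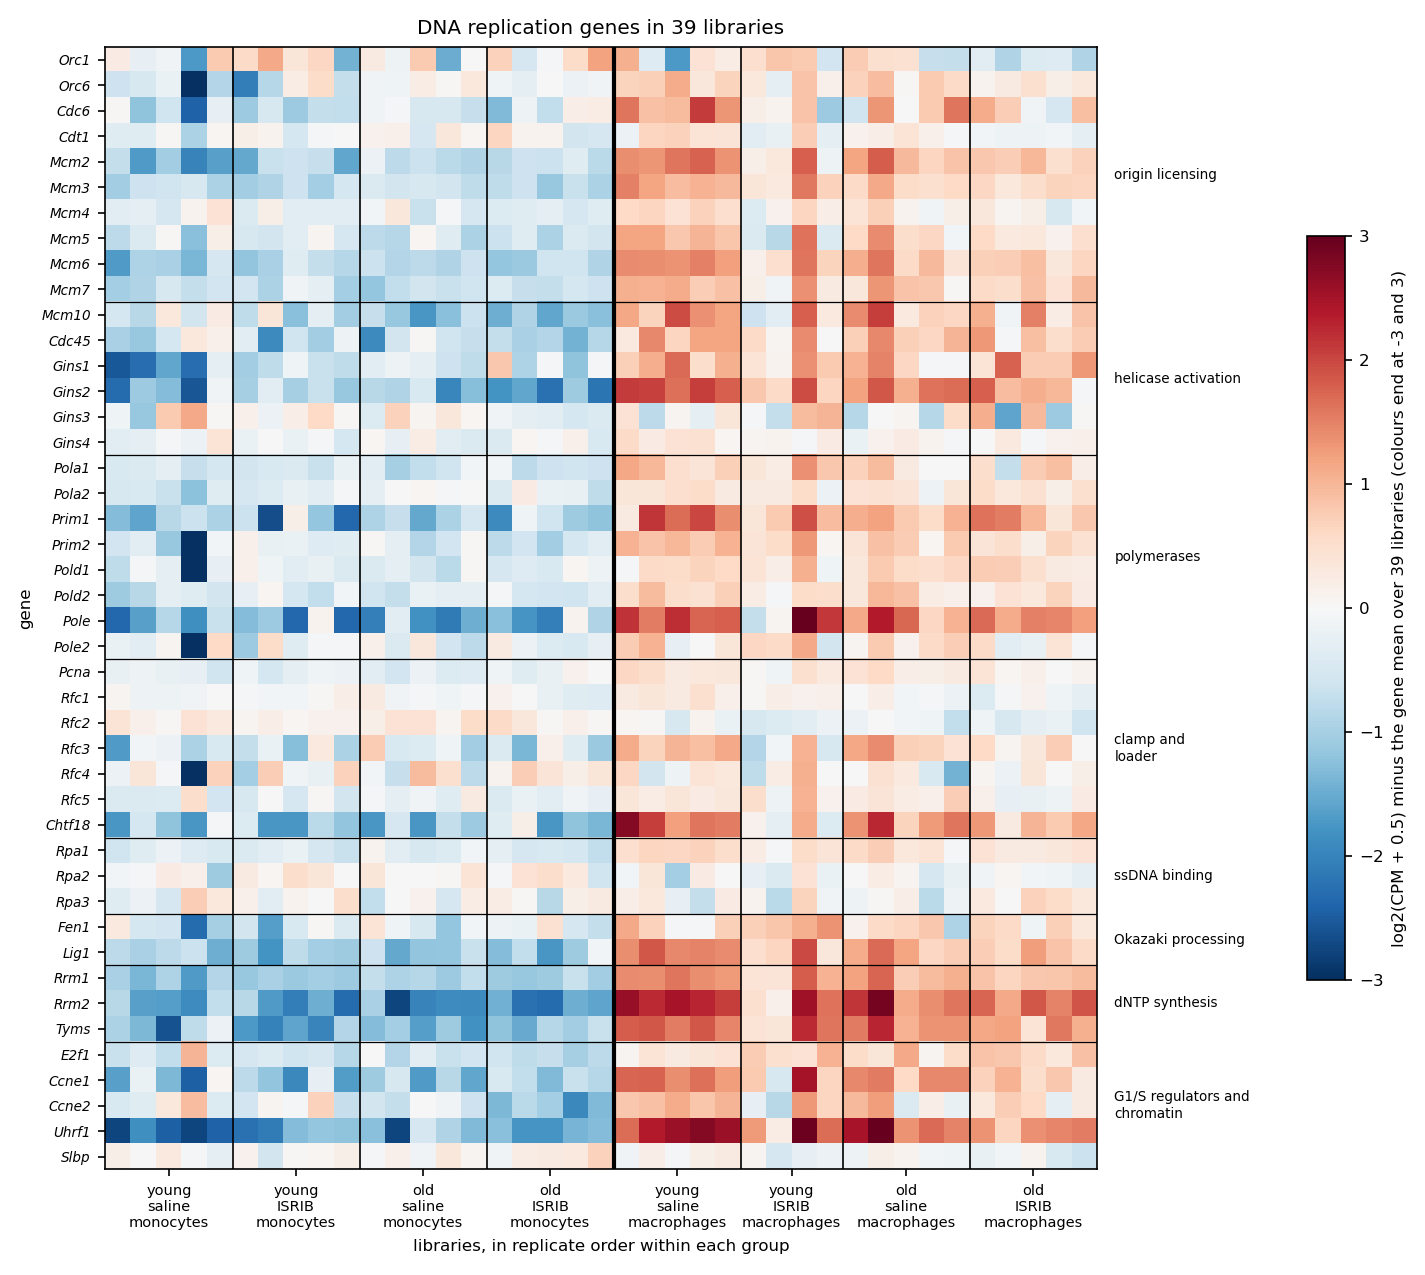
Level of each of the 44 DNA replication genes (rows, by role) in each of the 39 libraries (columns, by group), as log2(CPM + 0.5) minus the mean of that gene over the 39 libraries, with colours ending at -3 and 3. Most rows are redder in the macrophages on the right, and replicate 3 of the young ISRIB and replicate 2 of the old saline macrophages are the darkest columns of their groups.

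Per kilobase of exon, Pcna, the sliding clamp, was the most abundant member in both cell types, at 43.3 CPM per kb in young saline macrophages and 26.6 in young saline monocytes. In macrophages the next levels were those of Gins4, a GINS subunit, at 18.9 CPM per kb, and of the helicase subunits Mcm3 at 18.5, Mcm4 at 13.4 and Mcm6 at 12.4. Orc1, the largest subunit of the origin recognition complex, was lowest in macrophages at 0.398 CPM per kb. In monocytes the lowest were Chtf18 at 0.076, Pole at 0.047 and Uhrf1 at 0.032 CPM per kb. Levels this low rest on few counts, with none in some libraries.

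The first question is how the members differed between the bleomycin macrophages and the naive monocytes. Their summed level was 495.9 ± 21.1 CPM in young saline monocytes (SD, n = 5) and 1060 ± 43.2 CPM in young saline macrophages (n = 5). In old saline mice it was 521.6 ± 21.2 CPM in monocytes (n = 5) and 904.9 ± 174.1 CPM in macrophages (n = 5). All 20 monocyte libraries lay between 470.1 and 552.1 CPM, below every macrophage library. In young saline mice 35 of the 44 genes were higher in macrophages and 1 was lower by edgeR's quasi-likelihood test (adjusted p under 0.05). Of the 13587 genes tested, 60% passed in either direction, 31% higher and 29% lower, so the members' share of 79.5% higher stands beside a large general difference. The members' median log2 fold change was 1.41, against 0.007 over all genes tested. In old saline mice 31 were higher and 1 was lower, with a median of 1.14, where 57% of genes passed, 29.7% higher and 27.3% lower. In 11 members every macrophage library lay above every monocyte library, which held for 10.6% of the genes tested: Mcm2, Mcm3, Mcm6, Mcm7, Gins2, Prim1, Lig1, Rrm1, Rrm2, Tyms and Uhrf1. These are bulk libraries, in which fewer cycling cells and less RNA per cell cannot be told apart.

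Among the origin licensing genes, 9 of 10 were higher in young and 7 of 10 in old macrophages. Mcm2, a subunit of the MCM helicase (ENSMUSG00000002870, chr6:88883474-88898780, minus strand), was at 7.06, 3.33, 5.56, 2.61 and 3.5 CPM in the young saline monocytes and at 32.3, 30.5, 37.4, 42.1 and 31 CPM in the young saline macrophages. The groups did not overlap. The log2 fold change was 2.95 ± 0.29 (SE back-calculated from the test, adjusted p = 2.5e-11), and 2.01 ± 0.28 in old mice (adjusted p = 6.7e-08). Mcm6 differed by 2.51 ± 0.22 in young and 1.92 ± 0.22 in old mice, and Mcm3 by 1.95 ± 0.18 and 1.40 ± 0.17. Mcm5, which like Mcm6 bears the overlapping E2F words shown above, differed less. It was 1.42 ± 0.31 higher on the log2 scale in young and 1.39 ± 0.31 in old mice. Cdc6, a loader of the helicase, was higher by 2.44 ± 0.53 in young and 1.54 ± 0.52 in old mice, and the old call (adjusted p = 0.0105) ended without old saline macrophage replicate 5 (1.23, adjusted p = 0.0501). Cdt1, the other loading factor, was 0.73 ± 0.21 higher in young macrophages, and in old mice its value of 0.24 ± 0.21 did not pass (adjusted p = 0.341). Orc1 passed at neither age.

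Of the helicase activation genes, 5 of 6 were higher in young and 4 of 6 in old macrophages. Gins2, a GINS subunit, was between 0 and 2.25 CPM in the young saline monocytes and between 8.72 and 12.2 CPM in the macrophages, a log2 fold change of 3.77 ± 0.51. Its exons overlap those of Gse1 on the other strand, and the strand setting of the count is not given in the sources used here. Cdc45, which joins the active helicase, was higher by 1.56 ± 0.40 in young and 1.88 ± 0.40 in old mice. Exons of Cdc45 overlap those of Ufd1 on the other strand, and those of the licensing gene Mcm7 overlap Ap4m1 and Cops6 likewise. Gins3 passed at neither age.

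Of the polymerase and primase genes, 7 of 8 were higher at each age. Pole, the catalytic subunit of polymerase epsilon, was at 0 to 1.12 CPM in the young saline monocytes and at 6.98 to 11.3 CPM in the macrophages, with a log2 fold change of 4.14 ± 0.81 that rests on few monocyte counts. Pola1, the catalytic subunit of polymerase alpha, was higher by 1.34 ± 0.26 in young and 1.15 ± 0.26 in old mice. Pole2, the second polymerase epsilon subunit, passed at neither age.

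The clamp and clamp loader genes split. In young mice 5 of 7 were higher and Rfc2 was lower, and in old mice 4 were higher and Rfc2 was again lower. Pcna (ENSMUSG00000027342, chr2:132249162-132253314, minus strand) was at 66.0, 70.3, 66.0, 65.3 and 51.3 CPM in young saline monocytes and at 119, 112, 93.0, 97.1 and 98.2 CPM in the macrophages. It was thus well expressed in monocytes and only 0.74 ± 0.12 higher on the log2 scale in macrophages (adjusted p = 1.8e-06), and 0.86 ± 0.12 in old mice. Rfc2, a subunit shared by the clamp loaders, was at 42.5 to 56.8 CPM in young saline monocytes and 30 to 44.8 CPM in macrophages, ranges that overlapped. Its log2 fold change was -0.32 ± 0.13 (adjusted p = 0.0346) in young and -0.42 ± 0.13 (adjusted p = 0.0068) in old mice. The young call ended without young saline macrophage replicate 3 or 5 or young saline monocyte replicate 1 or 4 (adjusted p up to 0.131), without the low-count filter (0.0625) and with the 2 groups fitted alone (0.106). Its exons overlap those of Lat2 on the other strand. Chtf18, the large subunit of an alternative clamp loader that also serves sister chromatid cohesion, was higher by 3.84 ± 0.81 in young and 3.86 ± 0.81 in old mice, on saline monocyte levels of 0 to 1.12 CPM. Of the 3 RPA genes, Rpa1 alone passed at both ages, 1.04 ± 0.12 higher in young and 0.80 ± 0.12 in old mice.

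The 3 genes of deoxynucleotide synthesis were higher at both ages. Rrm2, the small subunit of ribonucleotide reductase that is regulated through the cycle (ENSMUSG00000020649, chr12:24708241-24714146, plus strand), was at 3.24, 1.66, 1.62, 1.31 and 3.5 CPM in young saline monocytes and at 40.7, 31.2, 36.8, 32.2 and 27.7 CPM in the macrophages. The difference was 3.88 ± 0.41 on the log2 scale (adjusted p = 1.4e-10), and 4.31 ± 0.43 in old mice. Rrm1, the large subunit, had the smallest adjusted p among the members at both ages, with 2.62 ± 0.20 and 2.22 ± 0.20, and thymidylate synthase, Tyms, was higher by 3.10 ± 0.43 and 3.52 ± 0.44. Lig1, the ligase that seals Okazaki fragments, was higher by 2.6 ± 0.30 in young and 2.41 ± 0.30 in old mice, while Fen1, the flap nuclease, passed in young and not in old mice, and the young call ended without young saline macrophage replicate 1 (adjusted p = 0.0573).

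Of the G1/S regulators and chromatin genes, 3 of 5 were higher in young and 4 of 5 in old macrophages. Uhrf1, which maintains DNA methylation behind the fork (ENSMUSG00000001228, chr17:56303321-56323486, plus strand), had 6 counts in all over the 5 young saline monocyte libraries and was at 10.4 to 22.4 CPM in the macrophages. Its fitted log2 fold change of 6.82 in young mice depends on the prior count, and in old mice it was 4.0 ± 0.51. E2f1, a transcription factor of the G1/S programme, was at 13.9, 16.9, 13.2, 46.1 and 16.7 CPM in young saline monocytes and at 23.6 to 30.3 CPM in macrophages. One library, replicate 4, was far above the other monocytes. The log2 fold change of 0.48 ± 0.22 did not pass (adjusted p = 0.0541), and without that library it was 0.91 (adjusted p = 1.6e-05). In old mice E2f1 was 1.20 ± 0.22 higher. Slbp, which binds histone messenger RNA, passed at neither age.

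**Figure D2:**
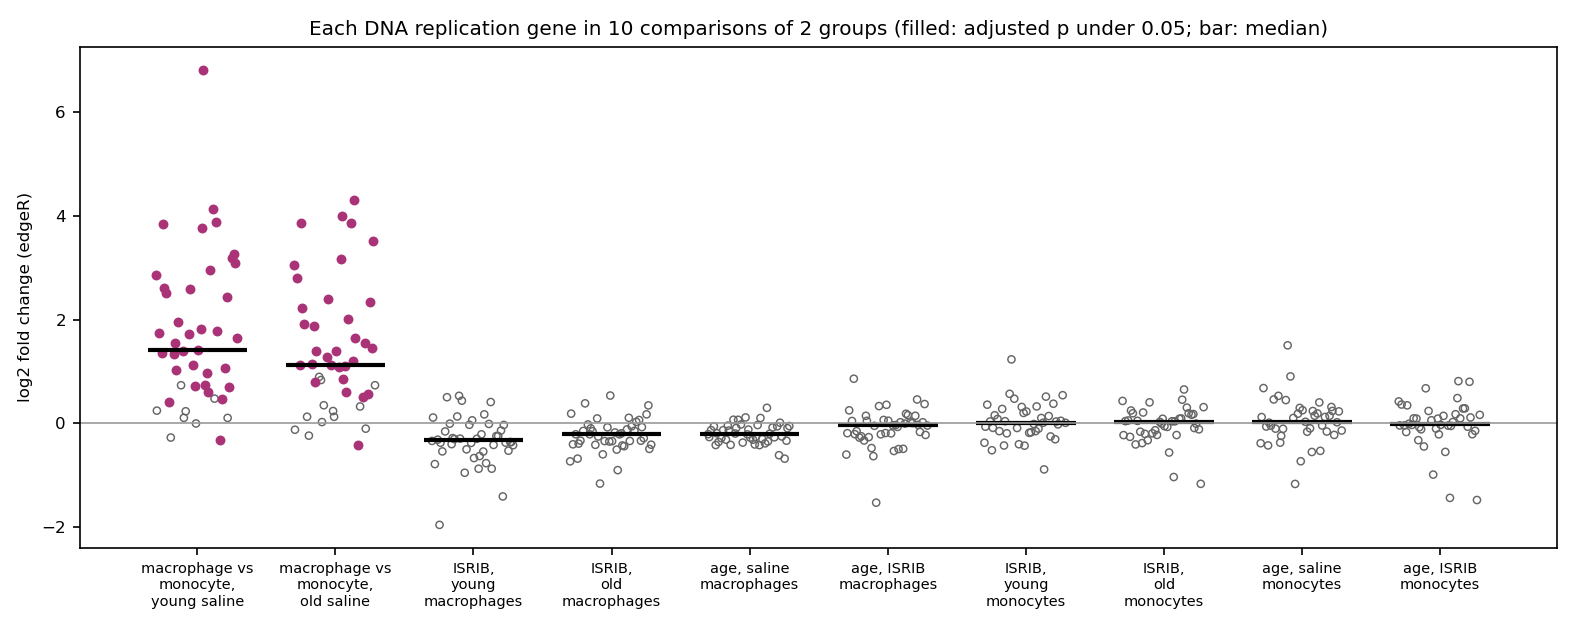
Log2 fold change of each member in 10 comparisons of 2 groups, with filled points for adjusted p under 0.05 and a bar at the median of the members. Both macrophage against monocyte comparisons sit mostly above 0 with medians of 1.41 and 1.14, and the comparisons within a cell type have no filled point.

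Beside the members, 60 other replication genes were counted. In young saline mice 40 were higher and 9 lower in macrophages (median log2 fold change 0.93), and in old mice 33 were higher and 5 lower (median 0.72). The 9 lower in young mice were Pold3, Rfwd3, Chtf8, Mcmbp, Dna2, Donson, E2f2, Rb1 and Msh6. Mcmbp, which binds MCM proteins, had a log2 fold change of -1.26 ± 0.08 and E2f2, another E2F factor, one of -1.69. Of 24 mitosis genes, 24 were higher in young and 21 in old macrophages. Mki67, a proliferation antigen, differed by 2.06 and 2.10, and Top2a, the topoisomerase of mitosis, by 4.53 and 4.91.

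The second question is whether ISRIB moved the members in the macrophages. The summed level was 1088, 1102, 1028, 1080 and 1001 CPM in the young saline libraries and 688, 647, 1250.0 and 803 CPM in the young ISRIB libraries. Replicate 3 of the ISRIB group lay above every saline library and its other libraries lay below all of them. In old mice the sums were 906, 1203, 846, 791 and 778 CPM with saline and 856, 760.2, 835, 749 and 784 CPM with ISRIB, groups that overlapped. By edgeR, no member passed in young macrophages (adjusted p from 0.117) or in old macrophages (adjusted p from 0.489), and 0% of all genes passed in either. At an unadjusted p under 0.05, 10 of 44 members were lower in young macrophages, or 22.7%, against 5.51% of all genes. That count was 6 without young ISRIB replicate 1 or 4, 4 without replicate 2 and 25 without replicate 3. In old macrophages 2 were lower, against 5.14% of all genes, and leaving out 1 library at a time gave 0 (without old ISRIB replicate 2) to 6 (without old saline replicate 3). The fold change was negative for 36 members in young and 35 in old mice (81.8% and 79.5%), against 50.4% and 50% of all genes. The members' medians were -0.33 and -0.21. Young ISRIB replicate 3 was the highest of its group for 36 members, so members moved together by library and are not independent agreements.

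**Figure D3:**
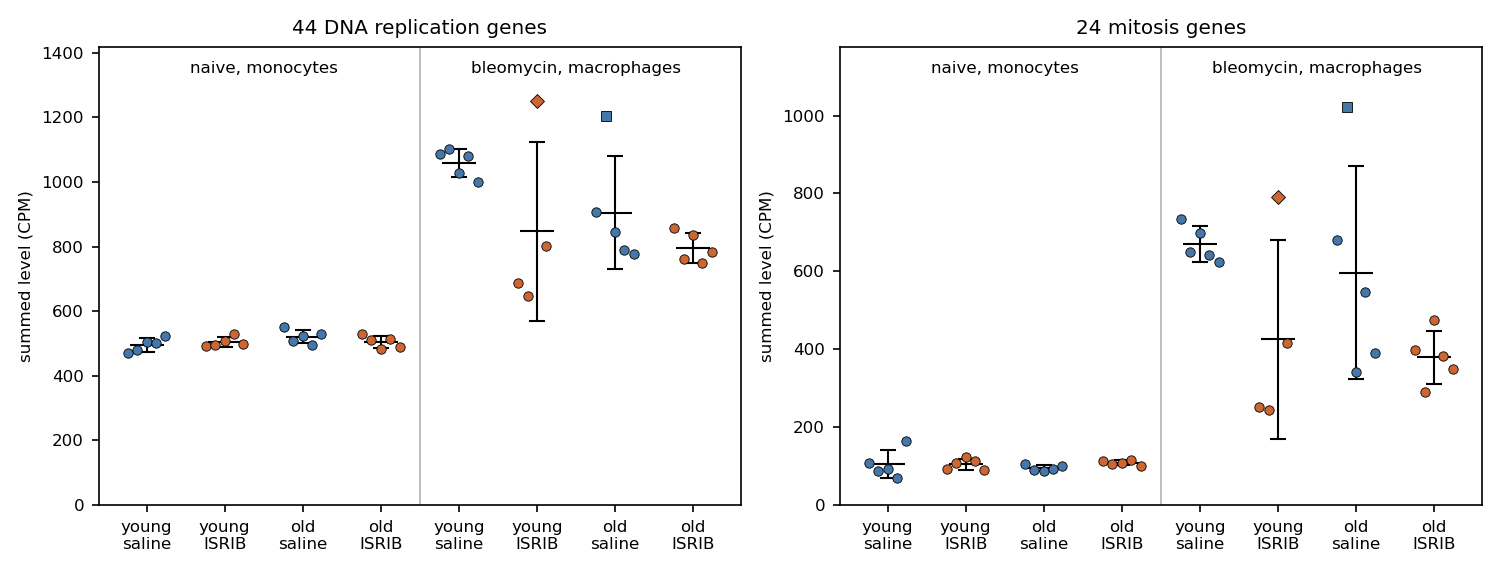
Summed CPM of the 44 DNA replication genes (left) and of 24 mitosis genes (right) in each library, with the group mean and SD as bars. The diamond is young ISRIB macrophage replicate 3, at 1250.0 CPM on the left, and the square is old saline macrophage replicate 2, at 1203 CPM, and both stand above the rest of their groups in both plots.

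Averaged over both ages, 1 member passed, Chtf18, which was lower with ISRIB (log2 fold change -1.32 ± 0.32, adjusted p = 0.0444), where 0.83% of all genes passed in either direction and 0.378% were lower. Of the 44 fold changes 39 were negative (88.6%, against 50.8% of all genes), with a median of -0.25. At an unadjusted p under 0.05, 17 members were lower, or 38.6%, against 8.15% of all genes. Leaving out 1 library at a time gave 12 (without old saline replicate 2) to 25 (without young ISRIB replicate 3) such members. Chtf18 (ENSMUSG00000019214, chr17:25718926-25727419, minus strand) was at 10.9, 6.59, 3.46, 4.64 and 4.36 CPM in young saline macrophages and at 1.35, 0.897, 3.11 and 0.764 CPM in young ISRIB macrophages. These groups did not overlap, although the ISRIB values rest on 5 to 20 counts. In old mice it was at 3.77, 7.57, 2.16, 3.57 and 4.58 CPM with saline and at 3.62, 1.52, 2.87, 2.40 and 3.23 CPM with ISRIB, and these overlapped. The call held without young saline replicate 3 or 5, young ISRIB replicate 3 or old saline replicate 3 or 5, and ended without any 1 of the other 14 macrophage libraries, with adjusted p up to 0.12. It also ended with limma voom (adjusted p = 0.0758) and with all 39 libraries in the fit (0.265). Rfc3, at an adjusted p of 0.081 in the main edgeR fit, passed as lower without old saline replicate 5 (-0.83, adjusted p = 0.041). No member passed for a difference of the ISRIB effect between ages, nor did any gene (0%). For Chtf18 the old effect minus the young effect was 1.28 ± 0.63 (adjusted p = 0.954).

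By role, all 10 licensing genes had negative values for the mean ISRIB effect, where 50.8% of all genes did. Of these 10 genes, 7 were lower at an unadjusted p under 0.05, against 8.15% of all genes. Mcm2 was at 13.5, 14.9, 42.3 and 10.7 CPM in the young ISRIB macrophages, set against 30.5 to 42.1 CPM with saline, and at 16.9 to 24.2 CPM in old ISRIB against 18.9 to 43.6 CPM in old saline macrophages. Its mean effect was -0.60 ± 0.19 (adjusted p = 0.10). Mcm5 (ENSMUSG00000005410, chr8:75109569-75128439, plus strand) was at 34.9, 34.9, 26.9, 31.2 and 27.5 CPM in young saline and at 11.1, 8.30, 48.3 and 11.2 CPM in young ISRIB macrophages. One ISRIB library exceeded all saline libraries and the others lay below all of them, and the log2 fold change was -0.67 ± 0.34 (adjusted p = 0.425). All 8 polymerase genes were also negative for the mean effect, yet none reached an unadjusted p of 0.05 and their median was -0.10. Pole gave -0.01 ± 0.51 and Pola1 -0.00 ± 0.29 in young mice, and for the mean effect the sign of Pole turned without young ISRIB replicate 1 or 2 or old saline replicate 2, and that of Pola1 without any 1 of 8 libraries. Rrm2 was at 8.77, 6.95, 38.2 and 20.2 CPM in young ISRIB macrophages, with a log2 fold change of -0.87 ± 0.36 (adjusted p = 0.31), and Lig1 was at 11.7, 13, 33.4 and 10.4 CPM, with -0.50 ± 0.27. E2f1 went the other way, with 38, 31.2, 30.2 and 46.9 CPM against 23.6 to 30.3 CPM with saline (0.41 ± 0.17, adjusted p = 0.309), so the fold changes of the members did not all share a sign. The other replication genes were negative in 46 of 60 for the mean effect (median -0.26), with 0 called. All 24 mitosis genes were negative, and Top2a was lower (-0.87 ± 0.20, adjusted p = 0.0404).

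**Figure D4:**
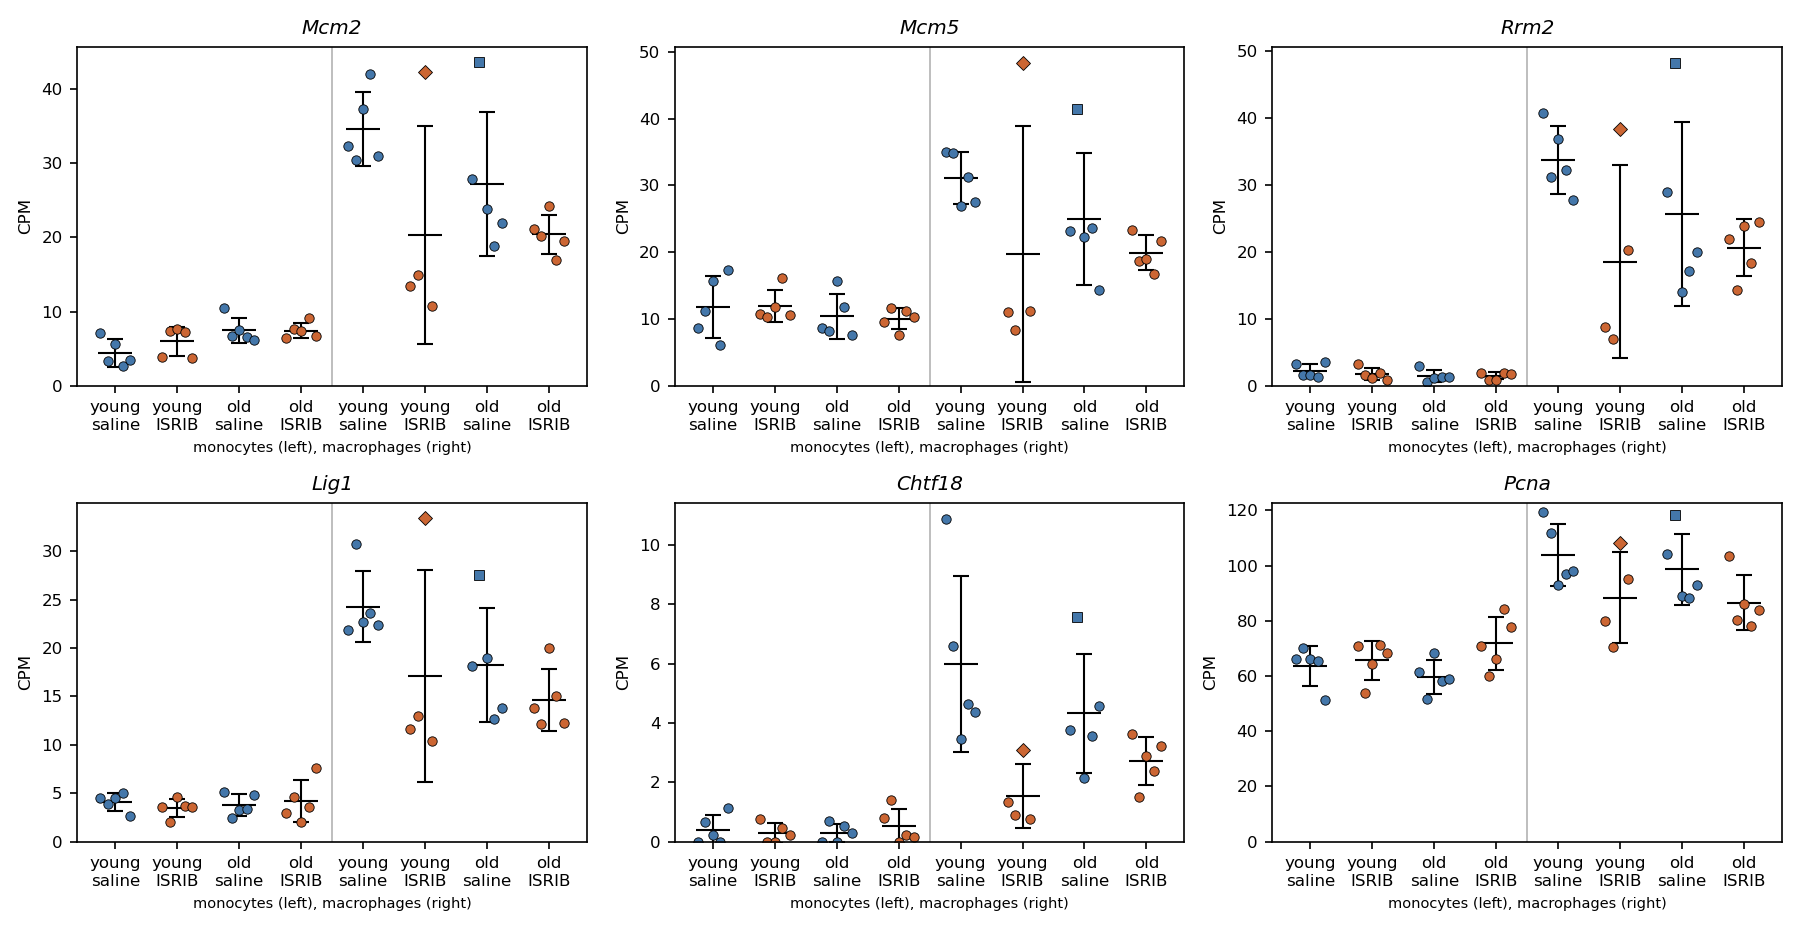
CPM in each of the 39 libraries for Mcm2, Mcm5, Rrm2, Lig1, Chtf18 and Pcna, by group. Young ISRIB macrophage replicate 3 is the highest of its group for all of these genes, for example at 48.3 CPM for Mcm5 against 8.30 to 11.2 CPM in the other ISRIB libraries.

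Leaving out young ISRIB replicate 3 alone changed the young comparison from 0 to 12 members lower, with 40 of 44 negative and a median of -0.65, where 2.43% of all genes passed. The 12 were Cdt1, Mcm2, Mcm3, Mcm5, Mcm6, Mcm7, Gins2, Rfc3, Chtf18, Lig1, Rrm1 and Rrm2, and naming them follows from their values. Mcm5 then gave -1.57 (adjusted p = 0.00293), Mcm2 -1.36 (adjusted p = 0.00335), Chtf18 -2.49 (adjusted p = 0.0176) and Rrm2 -1.48 (adjusted p = 0.0262). The mean ISRIB effect then had 15 members lower, where 5.19% of all genes passed. The library was set apart by these same genes, so these values describe what 1 library decides and are not a test of ISRIB. Leaving out old saline replicate 2 as well gave 14 lower in young mice (3.35% of all genes), 0 in old mice (0%; median -0.09) and 12 for the mean effect (2.99%). The difference of the ISRIB effect between ages was then past the threshold for Mcm5 alone (1.48 ± 0.25; 0.0242% of all genes), a gene in which the removed ISRIB library, at 48.3 CPM, stood far above the next of its group at 11.2 CPM.

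**Figure D5:**
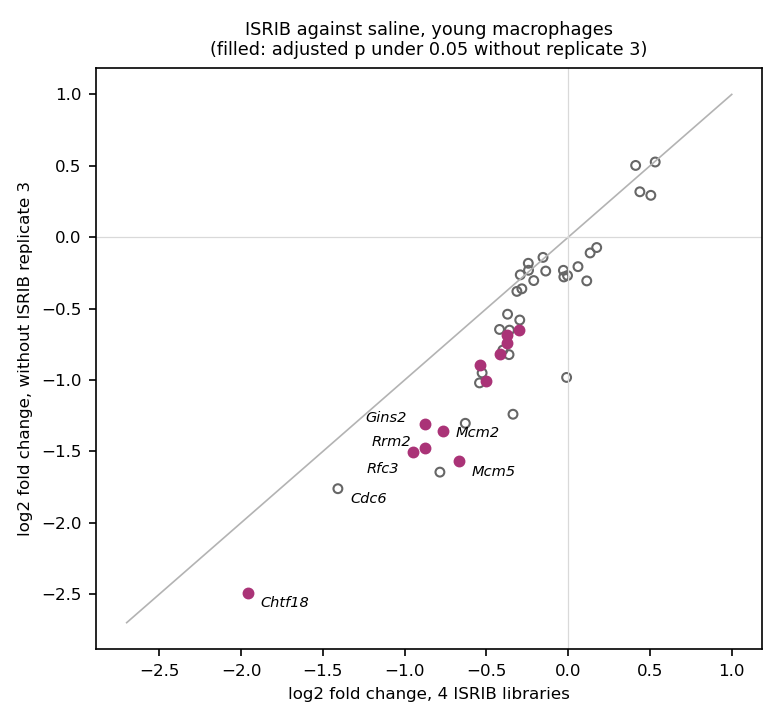
Log2 fold change of each member for ISRIB against saline in young macrophages, with all 4 ISRIB libraries (x axis) and without replicate 3 (y axis), filled where adjusted p was under 0.05 without it. Most points lie below the diagonal, for example Mcm5 at -0.67 and -1.57.

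Other markers moved beside these comparisons. Summed over 12 mature alveolar macrophage genes, the level was 5725 to 8590.0 CPM in young saline, 6234 to 9462 in young ISRIB, 5841 to 10211 in old saline and 8110 to 15731 CPM in old ISRIB macrophages. For the mean ISRIB effect 2 of these 12 genes were higher and 0 lower, as were 2 of 11 macrophage identity genes, and of 13 monocyte genes 1 was lower and 0 higher. The summed level of the monocyte genes was 5666 to 8906 CPM in young saline, 6057 to 8938 in young ISRIB, 5541 to 9195 in old saline and 7105 to 13297 CPM in old ISRIB macrophages. Chil3 stands in both the monocyte and the mature alveolar macrophage list, and Siglecf in both macrophage lists. These sums and counts are thus not independent. The monocyte sum therefore does not show a rise of monocyte transcripts. None of 8 B and plasma cell or 9 T and NK cell genes passed, but all of both lists had positive ISRIB fold changes in old macrophages, with medians of 0.79 and 0.81. Sums of 10 endothelial genes were 116 to 189 CPM in young saline and 136 to 262 CPM in young ISRIB macrophages. In old macrophages they were 163 to 229 CPM with saline and 191 to 219 CPM with ISRIB. Sums of 10 epithelial genes were 77 to 131 and 66 to 104 CPM in young macrophages. In old ones they were 49 to 90 and 67 to 114 CPM. Young ISRIB replicate 3 had the lowest endothelial and the highest epithelial sum of its group. The part of all these cells in the members' values was not tested.

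The third question is the effect of age in macrophages. No member passed in saline mice, where 1.16% of all genes did, or in ISRIB mice, where 0.937% did. The median log2 fold change of old against young was -0.20 with saline (38 of 44 negative, or 86.4%, against 49.1% of all genes). With ISRIB it was -0.04 (26 negative, or 59.1%, against 49% of all genes). Without old saline replicate 2 the saline median was -0.35 (41 negative), and without young ISRIB replicate 3 the ISRIB median turned to 0.19 (10 negative), so no direction with age held across these libraries in ISRIB mice. At an unadjusted p under 0.05, 2 members were lower in each, against 4.78% and 5.78% of all genes, and without old saline replicate 2 the saline count was 7. Averaged over treatments, Rfc1, the large subunit of the clamp loader (ENSMUSG00000029191, chr5:65261850-65335670, minus strand), was lower in old mice (-0.28 ± 0.07, adjusted p = 0.028), where 4.86% of all genes passed, 1.74% lower. It was at 63.8, 68.0, 64.3, 74.0 and 59.2 CPM in young saline and 53.6, 61.0, 50, 50.8 and 47.1 CPM in old saline macrophages, and at 54.0 to 60.9 CPM in young ISRIB and 39.6 to 58.1 CPM in old ISRIB macrophages. Old libraries were mostly lower, with overlap in both treatments. The call ended without young saline replicate 4, young ISRIB replicate 2 or 4, old saline replicate 5 or old ISRIB replicate 5, with adjusted p up to 0.0595. At an unadjusted p under 0.05, 2 members were lower for this mean effect (4.55%), against 7.7% of all genes. Counted in either direction, 1 called of 44 members is no larger a share than that of all genes. Rfc1 is thus a single call and not a result for the members as a set. Without the 2 high libraries, Mcm2, Mcm3 and Mcm6 were lower in old saline macrophages (2.94% of all genes), Mcm5 was past the threshold upward in old ISRIB macrophages (0.95; 0.492%) and Rfc1 was the member lower on average (4.09%). Since both libraries were removed for high levels of these genes, the shift of the fold changes follows in part from the removal, and these values are no test of age. Over the mean of treatments, 5 of 8 B and plasma cell genes, 5 of 9 T and NK cell genes and 7 of 12 mature alveolar macrophage genes were higher in old macrophages. The B and plasma cell sum was 2.64 to 9.44 CPM in young saline, 4.43 to 13.6 in young ISRIB, 9.65 to 42.4 in old saline and 27 to 82.0 CPM in old ISRIB macrophages. The T and NK cell sum was 5.04 to 8.60 CPM in young saline, 6.22 to 12.6 in young ISRIB, 10.7 to 33 in old saline and 19.4 to 48.2 CPM in old ISRIB macrophages. The part of these cells in the members' values was not tested.

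In the naive monocytes, 41 of the 44 members were tested, since Chtf18, Pole and Uhrf1 were too low. No member passed for ISRIB in young mice, in old mice or on average, where 0% of all genes passed in each. None passed for age with saline (0.0247% of all genes), with ISRIB (0%) or on average (0.123%). The medians of the members lay between -0.006 and 0.042, and DESeq2 and limma voom also called 0. At an unadjusted p under 0.05, ISRIB gave 0 members lower and 0 higher in young mice (3.02% and 3.62% of all genes), 1 and 1 in old mice (3.15% and 4.4%) and 2 and 0 on average (3.55% and 3.94%). Age gave 1 lower and 3 higher with saline (3.76% and 5.05%), 1 and 1 with ISRIB (2.49% and 4.11%) and 2 and 3 on average (3.71% and 4.54%). The summed levels were 504.6 ± 14.8 CPM with ISRIB in young and 504.9 ± 18.9 CPM in old monocytes (SD, n = 5 each), overlapping the saline groups.

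The difference between the cell types in these effects was tested directly. For ISRIB, the macrophage effect minus the monocyte effect passed for no member (0% of all genes), with a median of -0.34. Of the 44 values 38 were negative (86.4%, against 52.1% of all genes). At an unadjusted p under 0.05, 7 members were lower (15.9%, against 4.81% of all genes). Leaving out 1 library at a time gave 4 to 13 such members, the most without young ISRIB macrophage replicate 3, where the median was -0.46. For age it also passed for no member (0.743% of all genes), with a median of -0.23 and 4 lower at an unadjusted p under 0.05 (9.09%, against 5.09% of all genes). Without young ISRIB macrophage replicate 3 the median was -0.09 and 1 was lower. A difference between macrophages and monocytes in the ISRIB effect on the members is thus not shown in these libraries.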

How the data were processed

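RNA from sorted cells was sequenced by the submitters after poly(A) selection, per the labels' protocols. The submitters' processing notes name bcl2fastq 2.19.1, Trimmomatic 0.36, STAR 2.6.0, HTSeq 0.11.2 and mm10; the strand setting and the annotation were not given in the sources used. The deposited values are raw read counts per gene made by the authors. Here, counts were fitted with edgeR 4.0.16 (R 4.3.3): TMM scaling, a low-count filter (minimum count 10, total 15), the quasi-likelihood test and Benjamini-Hochberg adjustment over all genes, threshold 0.05. Macrophages (19 libraries, 12171 genes) and monocytes (20, 12170 genes) were fitted apart, and all 39 (13587 genes) for comparisons of cell types. A symbol was given for 97.8% of rows. No pair of libraries in a group agreed within sampling noise. Each SE of a fold change was back-calculated as its absolute value divided by the square root of the quasi-likelihood F, so it is approximate. It is least secure for low counts and for fold changes near 0. Intervals cover the spread between libraries. The alternatives were DESeq2 1.42.0, limma voom 3.58.1, other size factors, no filter, other sets of libraries, a replicate block and leaving out each library; leaving out both high libraries was added after seeing the data. Scripts were tested on simulated data. Members and lists were chosen with earlier results of these data known. Fold changes are given for up to 8 called members per comparison, by smallest adjusted p, plus 14 fixed members; Mcm2, Rfc2, Rfc3, Rpa1 and others named for single calls or for calls made without a library were chosen after their values were seen.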

Additional observations from a re-analysis of the deposited data

Results flagged for a closer look

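Gaps were examined in 120 groups of 4 or 5 libraries, for 14 named members and the summed level, and chance marks about 1 in 20. In 12 cases 1 library stood apart from its group. Young ISRIB macrophage replicate 3 did so for Mcm5 at 48.34 CPM (next 11.16), Cdt1 at 33.73 CPM (next 17.04), Gins2 at 10.88 CPM (next 4.625) and Lig1 at 33.42 CPM (next 13). Lig1 in young saline macrophage replicate 2 was at 30.77 CPM (next 23.66), and Uhrf1 in old ISRIB macrophage replicate 2 was low at 4.806 CPM (next 8.176). Among monocytes, E2f1 in young saline replicate 4 was at 46.13 CPM (next 16.85), Uhrf1 in young saline replicate 2 at 0.4435 CPM (next 0.1249), and Pcna in young saline replicate 5 was low at 51.32 CPM (next 65.28). Mcm5 in young ISRIB replicate 4 was at 16.15 CPM (next 11.86), Pole in old saline replicate 2 at 1.569 CPM (next 0.4288) and Pola1 in old ISRIB replicate 1 at 8.61 CPM (next 5.843).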

How the results depend on the processing

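For the 17 comparisons, 103 of 115 counts of called members under the alternatives stayed within 1.5 times the main count. For the mean ISRIB effect in macrophages, 1 member passed in the main analysis, 3 with DESeq2 (Mcm2, Rfc3, Chtf18), 2 with limma voom (Mcm2, Rfc3), 9 without the low-count filter, 2 with the replicate block (Mcm2, Chtf18), 0 with all 39 libraries and 12 without both high libraries. For ISRIB in young macrophages 3 passed without the filter and 14 without both high libraries. Without both, 1 passed for the difference of the ISRIB effect by age, 3 for age with saline and 1 for age with ISRIB, and without the filter 2 passed for the mean age effect. Leaving out 1 library at a time gave 0 to 15 members for the mean ISRIB effect, 0 to 12 for ISRIB in young macrophages, 0 to 1 for the mean age effect, and 34 to 36 and 31 to 34 for macrophages against monocytes in young and old mice. Of 621 fold changes of named members, 582 kept direction and side of the threshold, 31 newly passed, 4 were lost and 4 changed sign: Pole for ISRIB in young macrophages with DESeq2 (0.0098), and, without both high libraries in old macrophages, Pola1 (0.15), Pole (0.24) and Rrm2 (0.012). With 1 library left out, 25 of 1037 changed sign. For ISRIB in old macrophages Pola1 ranged from -0.18 to 0.18, Pole from -0.27 to 0.24 and Rrm2 from -0.50 to 0.011. In young macrophages Pola1 ranged from -0.27 to 0.13 and Pole from -0.98 to 0.38, and for the mean effect Pola1 from -0.14 to 0.086 and Pole from -0.55 to 0.13. The cause of these changes was not tested. On average, same-numbered libraries did not deviate together (mean r 0.003 over 27 macrophage pairs and -0.007 over 30 monocyte pairs). For pairs of different numbers the mean r was -0.001 and 0.002. Single same-numbered pairs reached r = 0.165 in macrophages and 0.242 in monocytes, with 2 and 4 pairs over 0.1. Of the libraries, 7 of 19 and 2 of 20 correlated best with their own number. The numbers were not taken as pairs, and a replicate block was run as an alternative. Depth limits Chtf18, Pole and Uhrf1 in monocytes.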
